A study of Mus musculus with 20 samples.

Results

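The 10 genes described here, Nes, Sox1, Sox2, Sox3, Sox9, Pax6, Vim, Fabp7, Slc1a3 and Prom1, are markers of neural progenitors and radial glia. They were matched by symbol in an RNA table of 21937 genes, and all 10 were found there. The list was chosen with earlier results of these data known, so the share of it that rose is a description only. The series profiles mouse cells (strain label 159.2) during neuronal differentiation, with 20 libraries in 10 groups. The RNA comparison used 4 of them: day 10 neurons given 200 µM NMDA, an agonist of a class of glutamate receptors, for 6 h (2 libraries), and day 10 neurons given DMSO alone for 6 h (2 libraries). Both groups were washed in a balanced salt solution before and after the treatment. The labels name no transgene, and nothing in them tells whether both libraries of a group stem from different cultures; if they do not, the p-values reflect technical spread alone. The comparison asks which transcripts differ between stimulated and control neurons. The ChIP-seq and FAIRE-seq tables list regions by number and width and were not used here.

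Neural progenitors of the developing brain divide and give rise to neurons, and many of them are radial glia, elongated cells that span the wall of the neural tube. SoxB1 factors (Sox1, Sox2 and Sox3) hold progenitors in an undifferentiated state, Sox9 acts in progenitors and in the switch to glia, and Pax6 directs dorsal progenitors towards glutamatergic neurons. Nestin and vimentin form the filaments of these cells, and most of the 10 genes fall as neurons mature. Several are not limited to progenitors: Sox9, Slc1a3 and Fabp7 are also expressed in astrocytes, Vim in fibroblasts and other mesenchymal cells, and Sox2 in pluripotent cells.

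The promoters of these genes are shown because the genes moved together in the comparison below. RefSeq start sites on build GRCm38.p6 gave 10 windows for 8 of the 10 genes (all but Sox3 and Sox9), each 300 bases long, from 250 bases before the start to 50 after it. Both strands were searched for TGACGTCA (the cAMP response element), TGANTCA (a loose form of the AP-1 site) and ATGCAAAT (the octamer). The search also took ACAATG and ACAAAG (forms of the SOX motif), GTGGGAA (the RBPJ motif of Notch signalling), CCAAT and TATAAA. None of the matches printed here overlap. The 4 windows below hold the single cAMP response element, an AP-1 site, the single octamer and a TATA box, with every match in capitals.
Pax6, first start, chr2:105668646-105668945, plus strand: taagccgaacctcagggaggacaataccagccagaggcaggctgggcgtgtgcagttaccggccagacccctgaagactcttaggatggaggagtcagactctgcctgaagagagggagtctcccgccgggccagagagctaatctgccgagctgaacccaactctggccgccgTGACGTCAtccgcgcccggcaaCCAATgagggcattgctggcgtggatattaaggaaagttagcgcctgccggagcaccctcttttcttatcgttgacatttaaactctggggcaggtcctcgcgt
Prom1, first start, chr5:44101687-44101986, minus strand: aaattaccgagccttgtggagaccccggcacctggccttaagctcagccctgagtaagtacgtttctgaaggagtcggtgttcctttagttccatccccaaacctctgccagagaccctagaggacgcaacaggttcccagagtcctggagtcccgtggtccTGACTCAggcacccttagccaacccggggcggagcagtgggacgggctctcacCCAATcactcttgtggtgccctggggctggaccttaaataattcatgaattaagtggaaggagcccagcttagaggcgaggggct
Sox1, chr8:12395269-12395568, plus strand: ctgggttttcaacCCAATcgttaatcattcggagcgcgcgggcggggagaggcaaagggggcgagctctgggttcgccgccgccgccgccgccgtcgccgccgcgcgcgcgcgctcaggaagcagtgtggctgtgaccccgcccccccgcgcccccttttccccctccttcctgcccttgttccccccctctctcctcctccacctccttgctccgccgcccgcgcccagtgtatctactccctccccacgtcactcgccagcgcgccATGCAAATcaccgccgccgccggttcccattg
Vim, chr2:13574061-13574360, plus strand: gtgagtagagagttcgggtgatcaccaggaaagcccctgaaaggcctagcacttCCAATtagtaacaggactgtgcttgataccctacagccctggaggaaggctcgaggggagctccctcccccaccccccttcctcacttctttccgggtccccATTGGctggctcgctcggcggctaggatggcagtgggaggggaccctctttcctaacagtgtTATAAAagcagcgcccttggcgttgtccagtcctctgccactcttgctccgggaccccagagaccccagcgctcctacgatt
In the Pax6 window TGACGTCA begins 76 bases before the start, and 1.79% of 32841 mouse promoter windows of this length hold it. In the Prom1 window the AP-1 match begins 88 bases before the start. TGANTCA, with any base at N, was matched in 2 of the 10 windows, both of Prom1, and in 7.81% of all windows. The match read TGACTCA in the first Prom1 window and TGAATCA in the second. The octamer in the Sox1 window begins 18 bases after the start and is held by 1.74% of all windows, and the TATA box of Vim begins 32 bases before the start (13.6% of all windows). CCAAT was found in 7 of the 10 windows, against 37.4% of all, ACAAAG in 2 against 18.7%, and ACAATG and GTGGGAA in 0 against 12.6% and 6.38%. The Nes window held none of the motifs. A match is only a run of letters, and no binding was measured here.

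All 10 markers rose after NMDA (10 of 10 at a limma adjusted p under 0.05, adjusted over all 13888 genes tested), while 20.5% of all genes tested rose and 21.5% fell. The means were 1.64-fold to 2.59-fold those of the controls. The median log2 change of the 10 genes was 0.88, against -0.01 for all genes tested. Both NMDA libraries lay above both DMSO libraries for each of the 10 genes, a pattern seen in 36.6% of all genes tested. All values are normalised read counts, that is, reads per gene divided by a factor for each library's depth and not by transcript length, so levels are not compared between genes. Log2 changes were taken on log2(value + 1), where the changes of genes with few counts appear smaller than they are. Because of that scaling, rises and falls are relative to the other genes of a library. In RNA from a whole culture, more cells of a type, more RNA per cell and less RNA from other cells cannot be told apart. With edgeR on recovered reads 10 of the 10 rose as well (20.9% of all genes), with DESeq2 on the same reads 8 (16.3%), and by limma without its variance trend 7 (14.9%). The count was 4 of 10 without DMSO replicate 1 (7.62% of all genes rose), 8 without DMSO replicate 2 (10.1%), 10 when NMDA replicate 1 was left out (21.8%) and 8 when NMDA replicate 2 was (14.8%).

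**Figure D1:**
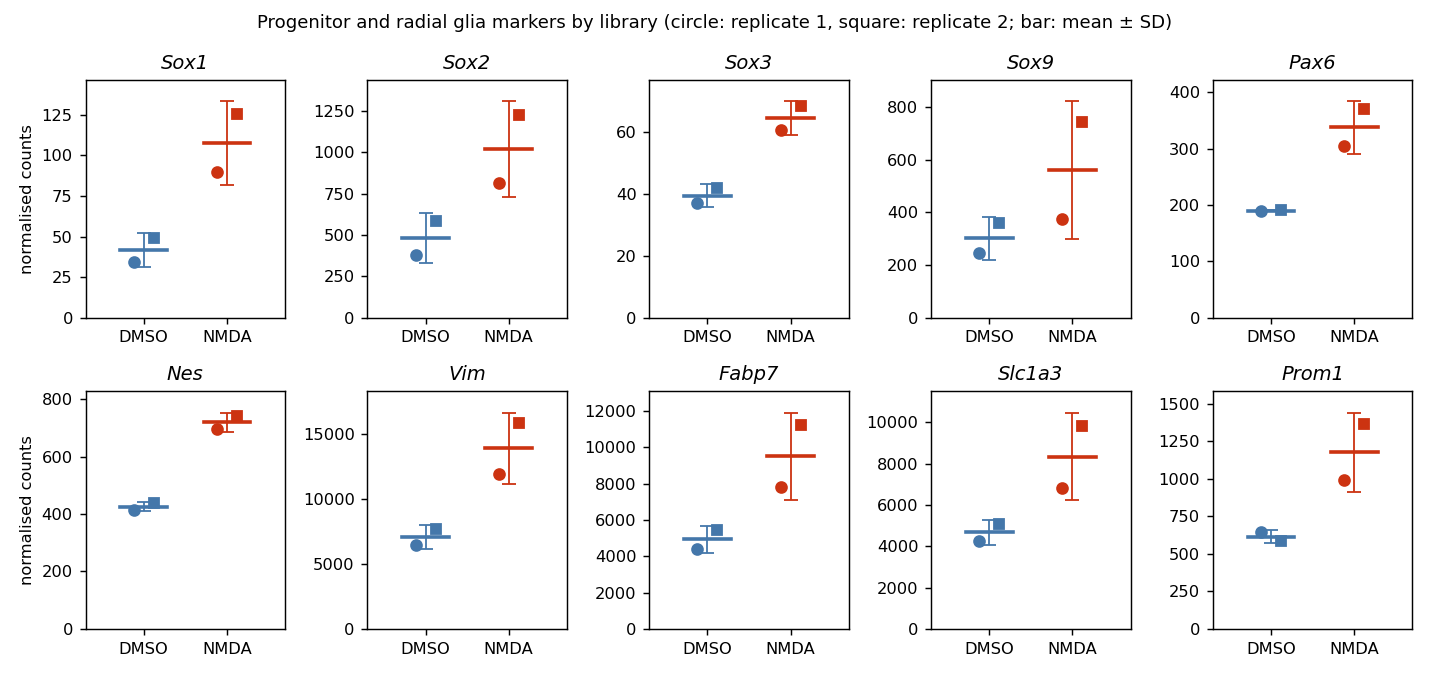
Normalised counts (vertical axis, starting at 0) of the 10 markers in DMSO and NMDA libraries of day 10 neurons; circles are replicate 1, squares replicate 2, horizontal bars the mean of 2 libraries and error bars the SD. Both NMDA points lie above both DMSO points in each panel, by the least for Sox9, where the lower NMDA value is 375 and the higher DMSO value 359.

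Among the SoxB1 factors, Sox1 and Sox2 gave the largest rises of the 10 genes. Sox1, among the earliest markers of neural fate, stood at 34.1 and 49.1 counts in the DMSO libraries and at 89.6 and 126 after NMDA. These rest on 38 and 41 reads, and on 102 and 120 reads. The lower NMDA value was 1.82 times the higher DMSO value, and the log2 change was 1.35 ± 0.26 (SE; limma adjusted p = 0.00441). A larger log2 change was seen in 0.634% of the genes tested. Sox2, which maintains progenitors and pluripotent cells, stood at 376 and 587 counts with DMSO and at 815 and 1224 with NMDA, a change of 1.09 ± 0.23 (limma adjusted p = 0.0066). Within each group replicate 2 was the higher for Sox2, by 1.56 times with DMSO and 1.50 times with NMDA, and the groups did not overlap. Sox3 was low and steady within groups, at 36.8 and 41.9 counts with DMSO and 60.6 and 68.2 with NMDA. Its change was the smallest of the 10, at 0.70 ± 0.22 (limma adjusted p = 0.0359), and rests on 35 to 69 reads per library. None of the SoxB1 genes passed without DMSO replicate 1, where the limma adjusted p was 0.0512 for Sox1, 0.0678 for Sox2 and 0.198 for Sox3. The Sox3 call was also lost without DMSO replicate 2 (adjusted p = 0.101) and without NMDA replicate 2 (adjusted p = 0.124), and with DESeq2 (adjusted p = 0.181), quantile normalisation (0.0999) or no filter on low values (0.0568).

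In the mouse annotation Sox2 lies within Sox2ot, a long non-coding gene. Sox2ot stood at 62.0 and 83.8 counts with DMSO and at 118 and 177 with NMDA, a log2 change of 0.99 ± 0.24 (limma adjusted p = 0.0119; chosen after its values were seen). It too was higher in replicate 2 of each group. Its call was lost without DMSO replicate 1 (adjusted p = 0.113) or NMDA replicate 2 (0.067). How strand and overlapping genes were treated in counting is not stated in the sources used, so the split of reads between Sox2 and Sox2ot is uncertain. Pax6os1, which overlaps the Pax6 start, was counted in 1 of the 4 libraries, at 2.40.

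Sox9 had the widest gap of the 10 markers between its NMDA libraries. It stood at 244 and 359 counts with DMSO and at 375 and 745 with NMDA, so that NMDA replicate 2 was 1.99 times replicate 1, while NMDA replicate 1 was 1.04 times the higher control. The log2 change was 0.83 ± 0.29, and the limma adjusted p of 0.0497 lay just under the threshold. The change was 0.34 without NMDA replicate 2 (adjusted p = 0.267), 1.33 without NMDA replicate 1 (0.00224), 0.56 without DMSO replicate 1 (0.312) and 1.11 without DMSO replicate 2 (0.0662). edgeR gave an adjusted p of 0.0421 and DESeq2 of 0.197, and the call was also lost with a pseudocount of 8, quantile normalisation, a minimum mean of 50 or limma without its variance trend.

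Pax6, the paired-box factor of dorsal progenitors, showed nearly equal controls. It stood at 189 and 190 counts with DMSO and at 305 and 370 with NMDA, a log2 change of 0.82 ± 0.14 (limma adjusted p = 0.00252). The lower NMDA library was 1.60 times the higher DMSO library. Pax6 passed in each of the 13 alternative analyses, as did Vim, Nes and Prom1. Its smallest change among those that leave out a library was 0.68, without NMDA replicate 2.

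The intermediate filament genes Nes and Vim rose. Nestin, the filament protein by which neural progenitors are often recognised, had the smallest adjusted p of the 10 genes. Nes stood at 415 and 437 counts in the controls and at 695 and 743 after NMDA, a log2 change of 0.75 ± 0.10 (limma adjusted p = 0.00111). Replicate 2 was 1.05 times replicate 1 with DMSO and 1.07 times with NMDA. Vim, vimentin, stood at 6444 and 7732 counts with DMSO and 11961 and 15849 with NMDA, a change of 0.96 ± 0.15 (limma adjusted p = 0.00177). Its replicates lay further apart than those of Nes, with replicate 2 at 1.20 times replicate 1 with DMSO and 1.33 times with NMDA.

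Other intermediate filament genes did not move in 1 direction. Of 14 listed, 13 passed the filter on low values, and of these 6 fell and 3 rose (median log2 change -0.29). Over all genes tested 21.5% fell and 20.5% rose. The neurofilament genes Nefm, Nefl, Nefh and Ina, whose proteins fill mature axons, fell by 0.81, 0.68, 0.65 and 0.41 on the log2 scale. Synm, synemin, fell by 0.90 and Lmnb2, a nuclear lamin, by 0.67. Lmnb1, Gfap and Krt19 rose by 0.59, 0.71 and 0.89 (chosen after their values were seen). The Gfap call was lost without DMSO replicate 1 (limma adjusted p = 0.249), DMSO replicate 2 (0.0804) or NMDA replicate 2 (0.160), and that of Krt19 without the same libraries (0.274, 0.0724 and 0.189). Nefl was not called without DMSO replicate 2 (0.0726), nor Ina without that library (0.116) or DMSO replicate 1 (0.107). Fewer rises were called without Gfap's 3 libraries and more without NMDA replicate 1, as over all genes. The list's median turned to 0.17 without DMSO replicate 2 and to 0.39 without NMDA replicate 1.

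The genes of lipid and glutamate handling rose by similar amounts. Fabp7, the brain lipid-binding protein of radial glia, stood at 4379 and 5468 counts with DMSO and at 7817 and 11204 with NMDA. Its log2 change was 0.94 ± 0.17 (limma adjusted p = 0.0035). Slc1a3, the glutamate transporter GLAST, stood at 4255 and 5091 counts with DMSO and 6842 and 9842 with NMDA, a change of 0.82 ± 0.16 (limma adjusted p = 0.00531). For both genes replicate 2 was the higher in each group and the groups did not overlap. The limma adjusted p rose to 0.0605 for Fabp7 and 0.0796 for Slc1a3 without DMSO replicate 1, and without its variance trend limma gave 0.0514 for Slc1a3 and 0.0581 for Sox2.

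The 2 gene families of Fabp7 and Slc1a3 were also listed. Of 6 other fatty acid binding protein genes, 2 passed the filter and neither was called by limma: Fabp5 changed in value by 0.36 ± 0.13 (adjusted p = 0.0513) and Fabp3 by 0.29 ± 0.20 (adjusted p = 0.281). At an unadjusted p under 0.05 limma would have counted Fabp5 alone, and DESeq2 gave Fabp5 an adjusted p of 0.0196. Without NMDA replicate 1 both passed (adjusted p = 0.0126 and 0.0169). Among 7 other glutamate transporter genes 1 rose and 2 fell (median log2 change -0.37), where 20.5% of all genes tested rose and 21.5% fell. Slc1a2, the other main astrocytic transporter, rose by 0.36 ± 0.11 (limma adjusted p = 0.0282), while Slc1a4 fell by 0.72 ± 0.11 (0.0016) and Slc1a6 by 0.52 ± 0.14 (0.0197). The Slc1a2 and Slc1a6 calls were lost without DMSO replicate 1 (0.201 and 0.111), DMSO replicate 2 (0.12 and 0.121) or NMDA replicate 2 (0.0921 and 0.0703). Without NMDA replicate 1 more falls were called, as over all genes, and the median was -0.22 without DMSO replicate 1 and -0.17 without NMDA replicate 2.

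Prom1, prominin 1 (CD133), a protein of membrane protrusions on progenitors, was the single marker whose DMSO libraries stood in the other order. It stood at 644 and 584 counts with DMSO and at 989 and 1364 with NMDA. The lower NMDA value was 1.54 times the higher DMSO value, and the log2 change was 0.92 ± 0.14 (limma adjusted p = 0.00202). The change lay between 0.69 without NMDA replicate 2 and 1.15 without NMDA replicate 1.

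**Figure D2:**
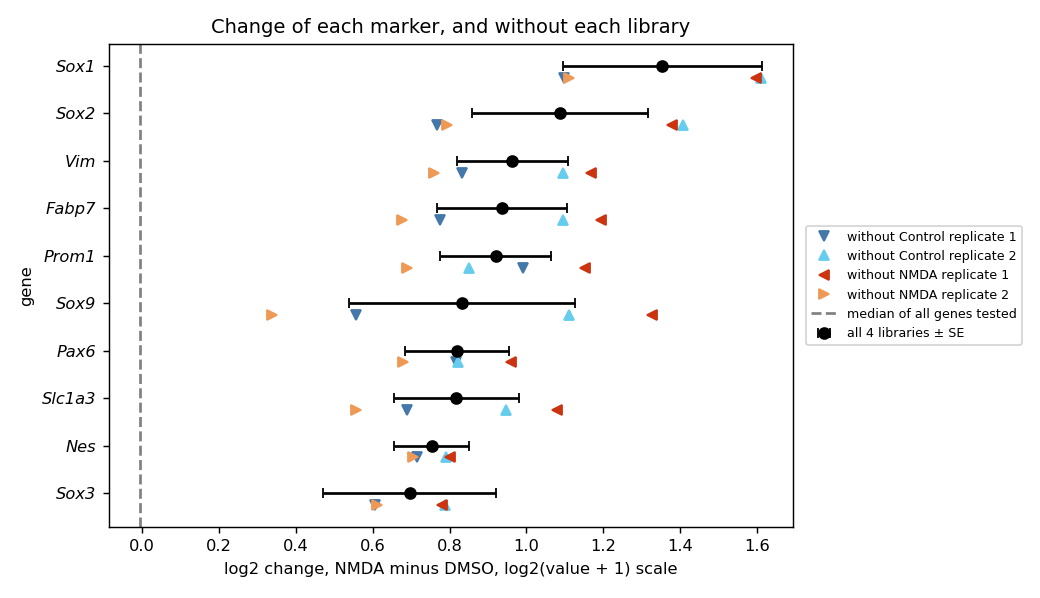
Log2 change of each marker, NMDA minus DMSO (horizontal axis), as a black point with its SE, and the same change without each library as coloured triangles; the dashed line is the median of all genes tested (-0.01). Every triangle lies to the right of the line, which follows from both NMDA values lying above both DMSO values for each marker. The lowest is Sox9 without NMDA replicate 2 (0.34), while Nes stays between 0.71 and 0.80.

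Levels of the markers also differed between the libraries of a group. Summed over the 10 genes, the counts were 17018 and 20540 with DMSO and 29948 and 41534 with NMDA. Vim, Fabp7 and Slc1a3 carried most of these sums, with 6444, 4379 and 4255 counts in DMSO replicate 1. NMDA replicate 2 was above NMDA replicate 1 for 10 of 10 markers, with a median ratio of 1.39, whereas 49.2% of all genes tested were higher in that library. DMSO replicate 2 was above DMSO replicate 1 for 9 of 10 markers (median ratio 1.20), against 46.8% of all genes. In the NMDA group the ratio ran from 1.07 for Nes to 1.99 for Sox9, and in the DMSO group from 0.908 for Prom1 to 1.56 for Sox2. The median change of the 10 genes was 1.16 without NMDA replicate 1 and 0.68 without NMDA replicate 2.

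**Figure D3:**
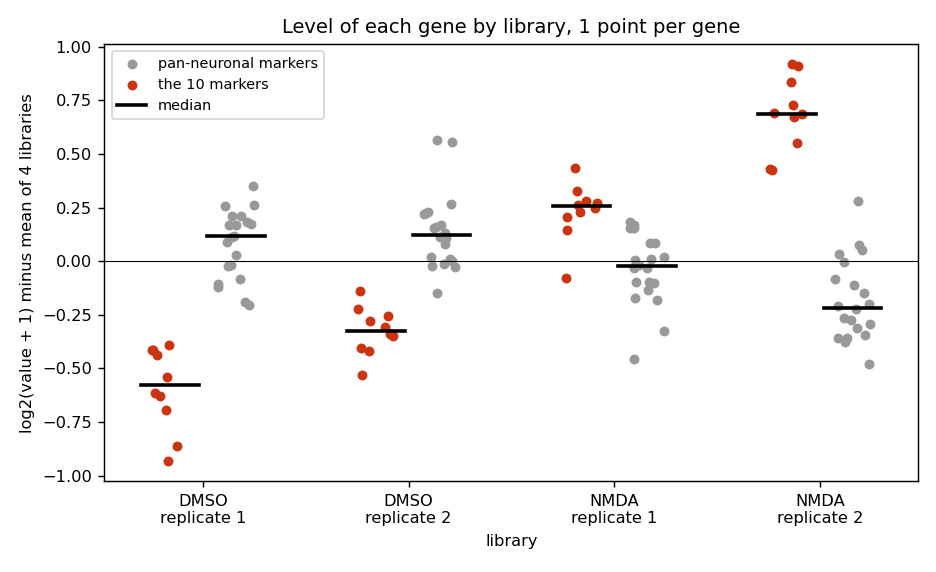
Log2(value + 1) of each gene minus its mean over the 4 libraries (vertical axis), by library, for the 10 markers (red) and 20 pan-neuronal markers (grey), with the median of each as a black bar. The markers' medians are -0.58 and -0.32 in the DMSO libraries and 0.26 and 0.69 in the NMDA libraries, while those of the pan-neuronal genes are 0.12, 0.12, -0.02 and -0.22.

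Genes with the most similar values over the 4 libraries were sought over genes other than the 10 markers whose mean reached 50, by the Euclidean distance of the centred log2 values from the mean of the 10 markers. The nearest 5 were Cdk1 (distance 0.045), Dlgap5 (0.057), Nov (0.059), Ccnb1 (0.061) and Top2a (0.065). Vim and Fabp7 were the nearest markers to that mean, at 0.056 and 0.063, while Nes lay at 0.33, Sox9 at 0.44 and Sox1 at 0.47. Each marker is itself part of the mean, which lowers its distance. Cdk1, the mitotic kinase, stood at 259 and 325 counts with DMSO and at 478 and 643 with NMDA. Dlgap5 (a mitotic spindle protein), Ccnb1 (cyclin B1) and Top2a (topoisomerase II alpha) also act in dividing cells, and Nov encodes a secreted matricellular protein. With 4 libraries such a likeness is a description only.

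Other genes of progenitors and radial glia rose with the 10 markers. Of 39 listed, 34 passed the filter on low values; 28 rose, 2 fell and 4 were not called (median log2 change 0.81). Tnc, tenascin C of the radial glial matrix, rose by 0.98 ± 0.08, Bcan, brevican, by 1.08 ± 0.10, Dll1, a Notch ligand, by 1.29 ± 0.13 and Notch1 by 0.91 ± 0.09 (limma adjusted p from 0.000565 to 0.000703). The Notch targets Hes1 and Hes5 rose by 0.70 ± 0.13 and 0.91 ± 0.21 (both chosen after their values were seen). The 2 falls were Dach1, by 0.63 ± 0.09, and Pou3f2, a neural POU factor, by 0.47 ± 0.15; the uncalled genes were Lix1, Zic1, Id4 and Msi2. Otx2 had no read in any library, and Eomes and Nr2e1 stayed at or below 3.15 counts. Without DMSO replicate 1 fewer rises were called, as over all genes, and the median was 0.72. The calls of Hes1, Hes5 and Pou3f2 were among those lost. Hes5 and Pou3f2 were also lost without DMSO replicate 2, as was Pou3f2 without either NMDA library.

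Other Sox genes showed fewer calls. Of 14 listed, 8 passed the filter, and 3 rose (median 0.38): Sox8, a SoxE gene like Sox9, by 1.59 ± 0.31, Sox21 by 0.75 ± 0.23 and Sox12 by 0.38 ± 0.10. Sox4 and Sox11, which act in newly formed neurons, had changes of 0.15 and 0.11 and were not called. Sox8 alone passed without DMSO replicate 1 or DMSO replicate 2, with adjusted p of 0.133 and 0.0766 for Sox12 and of 0.174 and 0.0927 for Sox21. The Sox21 call was also lost without NMDA replicate 2 (0.121).

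Cell cycle genes moved with the markers. Of 28, all tested, 24 rose and 0 fell by limma, also 0 by edgeR and at an unadjusted p under 0.05 (median 0.79). Aurkb, a mitotic kinase, rose by 1.20 ± 0.15, Cenpa by 1.11 ± 0.18, Top2a by 0.88 ± 0.15, the replication gene Mcm3 by 0.84 ± 0.12 and the proliferation marker Mki67 by 0.85 ± 0.15 (the last chosen after its value was seen). E2f1, Ccnb2, Pcna and Aurka were not called. Summed over all 28 cell cycle genes, the counts were 10532 and 11834 with DMSO and 15731 and 20776 with NMDA. Without DMSO replicate 1 fewer rises were called, as over all genes, and the median was 0.68.

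The label of neurons was checked against pan-neuronal markers. All 20 passed the filter, and their summed counts were 282638 and 293915 with DMSO and 268380 and 238705 with NMDA. Of these genes 8 fell and 1, Elavl4, rose (median -0.25), where 21.5% of all genes tested fell and 20.5% rose. Nefm fell by 0.81 ± 0.11, Syt1, a synaptic vesicle calcium sensor, by 0.58 ± 0.13 and Rbfox3, which encodes NeuN, by 0.48 ± 0.08. Tubb3, a neuronal tubulin, had a change of -0.09 and was not called. The falls numbered 3 without DMSO replicate 1 and 1 without DMSO replicate 2, and the median was -0.16 without NMDA replicate 2. Syt1 lost its call without DMSO replicate 1 (limma adjusted p = 0.0975) or DMSO replicate 2 (0.0505) and Rbfox3 without DMSO replicate 2 (0.0508). Elavl4 lost it without DMSO replicate 1 (0.178), DMSO replicate 2 (0.225) or NMDA replicate 1 (0.0875).

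Markers of other cell types that can express some of the 10 genes moved as well, and their part in the rise of the 10 genes was not tested. Of 13 astrocyte markers 11 passed the filter and 8 rose (median 0.71), with summed counts of 24810 and 25891 in the DMSO libraries and 32630 and 42191 in the NMDA libraries. Gja1, a connexin, rose by 1.08 ± 0.17 and Acsbg1 by 1.02 ± 0.11, while Aldoc and Atp1b2 had changes of 0.05 and 0.13 and were not called. None of the astrocyte genes was at 0 in all libraries, but S100b and Gjb6 were below the filter. Of 18 fibroblast and mesenchyme markers 17 rose (median 1.11), all but Thy1, which neurons also express. Their summed counts were 156268 and 144854 with DMSO and 285686 and 380711 with NMDA, none was at 0, and Col6a2 and Fn1 rose by 1.19 ± 0.10 and 1.12 ± 0.12. Of 12 oligodendrocyte lineage markers 8 passed the filter; 4 rose (Olig2, Olig1, Ugt8a and Pdgfra) and 1, Mog, fell (median 0.60), with summed counts of 1764 and 1703, and 2121 and 2557. Without DMSO replicate 1 fewer astrocyte and oligodendrocyte markers were called as rises, as over all genes. Their medians were then 0.65 and 0.50, and Mog, Pdgfra and Ugt8a were not called. Without DMSO replicate 2 Mog and Ugt8a were lost too, and Ugt8a without either NMDA library. Without NMDA replicate 2 the median of the oligodendrocyte markers was 0.39.

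Lists for pluripotent cells, microglia and endothelium held both absent and measured genes. Of 11 pluripotency markers, 3 passed the filter on low values. Esrrb, an orphan nuclear receptor, stood at 535 and 438 counts with DMSO and 223 and 173 with NMDA and fell by 1.30 ± 0.16 (limma adjusted p = 0.000906). Klf4, a zinc finger factor also expressed outside pluripotent cells, stood at 151 and 168 counts with DMSO and 246 and 701 with NMDA and rose by 1.38 ± 0.39 (limma adjusted p = 0.0212), a call lost without DMSO replicate 1 (0.13), without DMSO replicate 2 (0.0856) or with DESeq2 (0.0738). Its change was 0.63 without NMDA replicate 2 and 2.13 without NMDA replicate 1. Lin28a was not called. The defining factor Pou5f1 was counted in the NMDA libraries alone, at 6.15 and 1.05, and Nanog at 2.63 to 9.88 in all 4. The microglial genes P2ry12 and C1qa and the endothelial gene Cldn5 had no read in any library. Of 8 microglia markers 1, Tmem119, passed the filter and rose by 0.68 ± 0.14, a call lost without DMSO replicate 1 (limma adjusted p = 0.0717). Of 8 endothelial markers 6 passed the filter and 1 rose, where 20.5% of all genes tested rose. That gene, Kdr (a VEGF receptor), rose by 0.80 ± 0.14, from 241 and 193 counts to 360 and 392. Without NMDA replicate 1 there were 3 endothelial rises, where 21.8% of all genes rose.

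Immediate early genes, which neurons switch on soon after activity, were listed for the same libraries, and the cause of their changes was not tested. Of 15, 14 passed the filter and 12 rose (median 1.24), led by Npas4 at 3.17 ± 0.17 and Fosb at 2.68 ± 0.22. Arc and Ier2 had changes of 0.17 and 0.59 and were not called. Over all 15 immediate early genes the summed counts were 4645 and 6324 with DMSO and 11875 and 18264 with NMDA, so here too NMDA replicate 2 was the higher. Leaving out DMSO replicate 1 gave fewer rises, as over all genes, and a median of 1.07.

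**Figure D4:**
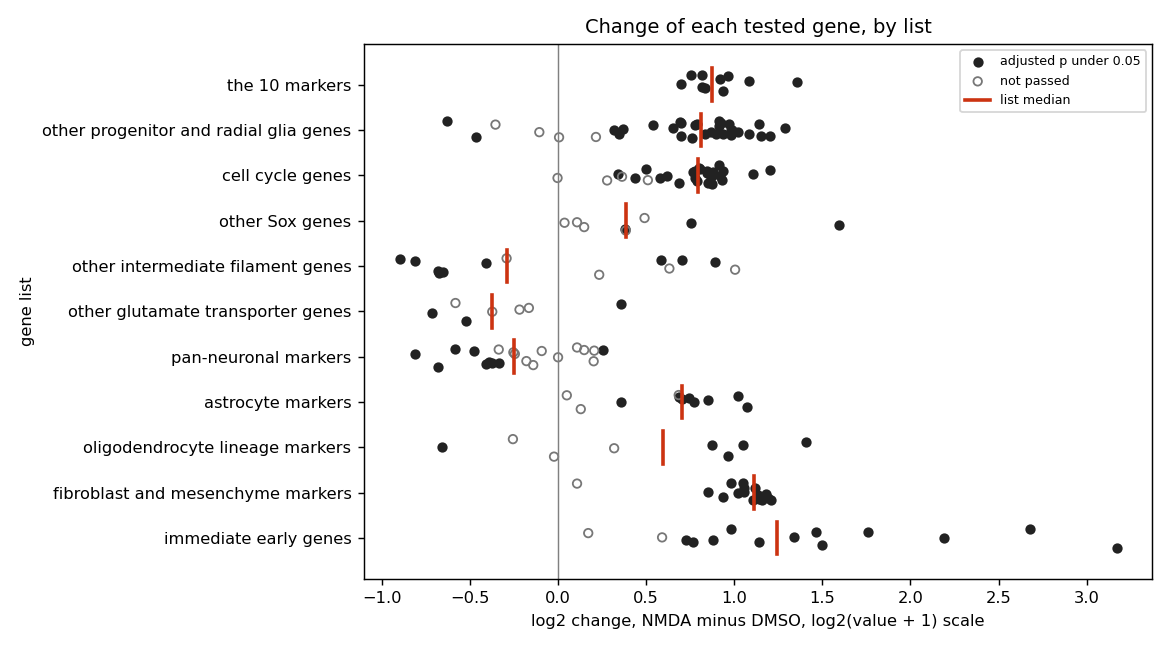
Log2 change of each tested gene, NMDA minus DMSO (horizontal axis), by gene list; filled points had a limma adjusted p under 0.05, open points did not, and red bars are list medians. The 10 markers lie between 0.70 and 1.35 (median 0.88), the fibroblast list has a median of 1.11 and the pan-neuronal list of -0.25.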

How the data were processed

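RNA of day 10 neurons was measured in 4 libraries. The authors deposited a signal per gene and library, named normalised read counts; per the submitters' processing notes, TopHat, Bowtie, HTSeq and DESeq and build mm9 were used, with versions, roles, annotation and strand not given in the sources used here. Within each library at least 99.982% of values were a whole multiple of a common step (tolerance 0.0051), which gave depths of 20127348 and 15008112 reads (DMSO) and 20149813 and 16833459 (NMDA). That depth limits the precision of genes with few reads, such as Sox1 and Sox3.

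Genes with a mean of at least 10 counts (13888 of 21937) entered limma's trended test in R 4.3.3 (limma version 3.58.1), run on log2(value + 1), 2-sided, group as the only term, Benjamini-Hochberg adjustment over all genes and a threshold of 0.05. Alternatives ran DESeq2 1.42.0 and edgeR 4.0.16 on whole reads, other pseudocounts, filters and scalings, a replicate block, and each library left out. The scripts were tested on simulated data. The markers, the other 14 lists and the motifs were chosen with earlier results of these data known. Named were all 10 markers, from each list the 4 called genes of lowest p (or, with no call, the 2 of highest mean) and the 5 nearest in pattern; not all are printed, and any other gene was chosen after its values were seen. All 216 listed genes matched, Map2 under its older symbol Mtap2. Some genes stand in more than 1 list (Nefl, Nefm, Ina, Gfap, Slc1a2, Sox10 and Thy1). Groups came from sample titles. Some genes counted in the lists are not reported here by name.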

Additional observations from a re-analysis of the deposited data

How the results depend on the processing

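The log2 change of every marker stayed above 0 in all 13 alternatives. For most of them this sign was fixed in advance. Both NMDA libraries lay above both DMSO libraries for each marker, so leaving out 1 library cannot reverse it. Nor can another pseudocount, another filter, the variance trend or the replicate block. Leaving out 1 library at a time gave 4 to 10 rises and 0 falls among the 10 markers, a median of 0.68 to 1.16, and 1060 to 3031 rises and 910 to 3335 falls over all genes. Without DMSO replicate 1, 1060 genes rose and 910 fell, and without DMSO replicate 2, 1406 and 1338; fewer samples were fitted, and the lone control was assumed to vary like the NMDA group. limma without its variance trend gave 7 marker rises (Sox2, Sox9 and Slc1a3 not called) and, over all genes, 2071 rises against 2845 and 1975 falls against 2979; the cause was not tested. edgeR gave 10 marker rises and DESeq2 8, with 2260 rises over all genes. The labels do not say that equal replicate numbers mark a shared culture, and with 2 pairs the numbers alone do not pair the libraries; deviations of same-numbered libraries correlated at 0.34 over genes. With a replicate block, 10 markers rose and none fell by limma, with 3685 rises and 3782 falls over all genes. The block adds a term to a fit of 4 libraries, so its p-values lean heavily on the variance shared over genes. For Sox9 the limma adjusted p was 8.24e-13 with the block, against 0.0497 in the main fit. Sox1 and Sox3 rest on 35 to 120 reads per library, which limits their precision.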
